A study of Mus musculus with 12 samples.

Results

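Hoxb3, Hoxb5, Hoxb6, Hoxb7, Hoxb8 and Hoxd8 were followed across structures of the developing mouse kidney. These 6 genes, of 8251 genes with a probe set of their own on the array, are 5 genes of the HoxB cluster and 1 gene of the HoxD cluster. They were taken by name, with earlier results of these data known, and 10 other HoxB and HoxD genes on the array are not among them. Every probe set annotated to exactly 1 of the 6 symbols was used, which gave 8 probe sets. A further probe set annotated to both Hoxb7 and Hoxb8 was not used. Each gene is described by its probe set with the highest mean, and the second probe sets of Hoxb8 and Hoxd8 are given beside them.

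The samples were structures dissected by their shape from E14.5 kidneys (Theiler stage 22) of wild-type Swiss Webster mice, sex unknown, on 12 Affymetrix MG_U74Av2 arrays. Each of 4 groups had 3 arrays. Renal vesicles, the first epithelial balls of the nephron, were amplified in pools of 20, as were S-shaped bodies, the later stage that already has glomerular and tubular ends. A further 3 arrays came from single S-shaped bodies, run to test amplification without pooling. The fourth group was unpooled collecting duct, the branching epithelium that grows from the ureteric bud and is the study's reference. RNA of all groups went through 2 rounds of T7 amplification. Per the labels each sample is a biological replicate, but nothing states that the samples of a group came from different embryos; p-values then cover just the spread among these samples, which may be technical.

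Hox genes encode homeodomain transcription factors that lie in 4 clusters and are used in nested domains along the body axis, with genes at one end of a cluster active more to the front and those at the other end more to the back. Hox proteins bind DNA together with partners of the Pbx and Meis families. In the kidney, genes of paralogous group 11 are needed in the mesenchyme that induces the ureteric bud, acting with Eya1 and Pax2 on Six2 and Gdnf, while a Hoxb7 enhancer is the standard driver of transgenes in the ureteric bud and its branches.

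Promoter sequence in the RefSeq table (build GRCm38.p6) was matched for 2 of the 6 genes, Hoxb8 and Hoxd8. These 2 are shown because they were the ones matched. On the arrays Hoxd8 was strongly higher in collecting duct and Hoxb8 was not called different in any comparison. A link between the sequences and the array values was not tested. Each is the 250 bases before the annotated start, on the + strand, 5′ to 3′, with motif matches in capitals. Hoxb8 lies at chr11:96281655-96281904 and Hoxd8 at chr2:74704365-74704614. The start used for Hoxb8 lies within the gene's full annotated span, so it is one of its starts.
Hoxb8: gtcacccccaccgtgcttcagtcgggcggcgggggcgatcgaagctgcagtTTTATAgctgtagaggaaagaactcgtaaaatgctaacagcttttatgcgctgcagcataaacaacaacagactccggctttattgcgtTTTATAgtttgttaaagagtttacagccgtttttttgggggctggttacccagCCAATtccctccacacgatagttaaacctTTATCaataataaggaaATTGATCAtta
Hoxd8: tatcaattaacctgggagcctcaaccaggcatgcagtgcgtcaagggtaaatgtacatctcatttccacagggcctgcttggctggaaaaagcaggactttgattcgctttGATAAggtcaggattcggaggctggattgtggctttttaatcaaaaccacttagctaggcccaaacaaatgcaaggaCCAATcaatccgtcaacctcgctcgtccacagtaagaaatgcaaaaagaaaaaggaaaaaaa

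Both windows held 44.4% G and C, against a median of 52.4% over the 32851 windows of that table. The Hoxb8 window had 12 CpG pairs and the Hoxd8 window 6, where the median was 6. Of 5 motifs searched on both strands, the Hox-Pbx site TGATNNAT occurred at base 240 of the Hoxb8 window, on the reverse strand, and not in the Hoxd8 window; 7.68% of all windows held it. The Meis site TGACAG, held by 15.9% of windows, was in neither. The GATA letters GATAA occurred once in each, at base 223 in Hoxb8 and base 112 in Hoxd8, and in 22.6% of windows. The CCAAT box occurred at base 194 in Hoxb8 and base 189 in Hoxd8, and in 33.8% of windows. TATAAA, on the reverse strand, occurred in Hoxb8 at bases 52 and 141 and in 12.4% of windows. No match overlapped another. A match is a run of letters and not a measured binding site.

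Levels below are log2 of the quantile-normalized intensity plus a pseudocount of 7.22, which understates the change of dim genes, and differences are differences of these log2 levels. An array's background level was set from its own negative values, at the size of the value that 5% of its probe sets fall under, and a brighter probe set was counted as above background; the level lay between 4.44 and 5.30 on the log2 scale. Mean deposited intensity per array ran from 21.4 to 363, lowest on the single S-shaped bodies at 21.4 to 70.6, and between 48.3% and 59.7% of probe sets were above background. Within groups, arrays correlated at 0.91 to 0.94 for single S-shaped bodies and at 0.95 to 0.98 for the others. Collecting duct markers, 10 on the array, summed to a normalized intensity of 9852 to 10880 in collecting duct and to 219 to 1667 on the other arrays, with Aqp2, a water channel of the mature duct, at 0 on all 12. Of the 10, 8 were above background on each duct array and 3 to 7 on the others. Stroma markers, 8 on the array, summed to 20.3 to 38.2 in collecting duct, 379 to 2008 in renal vesicles and 5143 to 8075 in S-shaped bodies. Endothelial markers, also 8, summed to 27.9 to 70.5, 1415 to 3079, and 5540 to 7563 in the same order. On each duct array 0 or 1 of the 8 stroma and 0 or 1 of the 8 endothelial markers were above background, with Col3a1 and Cdh5 at 0 on all 3, against 7 or 8 of each on the S-shaped body arrays. Markers of other cell types thus differed between the groups; their part in the Hox results was not tested. In RNA of whole structures, fewer cells that use a gene and less RNA per cell cannot be told apart.

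Hoxd8 and Hoxb7 were the genes called lower than collecting duct in all 3 nephron groups. Wherever renal vesicles or pooled S-shaped bodies are set against the unpooled collecting duct, tissue and pooling differ together and cannot be told apart. Single S-shaped bodies and collecting duct were both unpooled. Hoxd8, known from work on lymphatic vessels besides its place in the HoxD cluster, reached a log2 level of 10.24, 10.14 and 10.40 in collecting duct. It was 8.35, 8.93 and 8.20 in renal vesicles, 8.11, 8.50 and 8.18 in the pooled bodies, then 8.33, 7.65 and 7.75 in single S-shaped bodies. All 3 duct arrays lay above all 9 nephron arrays, and the 3 nephron groups overlapped one another. On the deposited scale this was an intensity of 1790 to 2516 in collecting duct, 164 to 366 in renal vesicles, 317 to 477 in pooled and 30.8 to 67.5 in single S-shaped bodies.

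Hoxd8 fell short of collecting duct by a log2 difference of -1.77 (SE 0.19) in renal vesicles, a 3.40-fold difference (limma, Benjamini-Hochberg adjusted p = 7.57e-05). In pooled S-shaped bodies the difference was -2.00 (SE 0.19, limma adjusted p = 1.80e-05), and in single ones -2.35 (SE 0.21, limma adjusted p = 0.000109). The second Hoxd8 probe set, dimmer, told the same order: 7.83, 8.03 and 8.13 in collecting duct, 6.21, 6.45 and 5.39 in renal vesicles, then 5.26, 4.77 and 4.66 in the pooled bodies, where 2 of 3 arrays were above background. Single S-shaped bodies gave 2.85, 5.15 and 5.32 there, again with 2 of 3 above background. Its differences from collecting duct were -1.98, -3.10 and -3.56 for renal vesicles, pooled and single S-shaped bodies (limma adjusted p = 0.000623, 1.34e-05 and 0.00259). The 2 probe sets of Hoxd8 correlated at r = 0.82 (rho 0.69) over the 12 arrays, which share their groups, so this is a description.

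Hoxb7, the gene of the ureteric transgene driver, followed Hoxd8 closely. Its log2 level was 8.47, 8.55 and 8.48 in collecting duct, the tightest group of any of the 6 genes with an SD of 0.04. It was 7.24, 7.29 and 7.06 in renal vesicles, 6.71, 7.21 and 7.02 in the pooled bodies, then 7.34, 6.85 and 6.72 in single ones. No nephron array reached the duct arrays, yet all were above background. The deposited intensity was 577 to 781 in collecting duct, 67.9 to 108 in renal vesicles, 119 to 196 in pooled and 15.7 to 32.9 in single S-shaped bodies. The difference from collecting duct was -1.30 (SE 0.17) in renal vesicles, or 2.46-fold, -1.52 (SE 0.17) in pooled S-shaped bodies and -1.53 (SE 0.22) in single ones (limma adjusted p = 0.000305, 5.21e-05 and 0.00114).

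**Figure D1:**
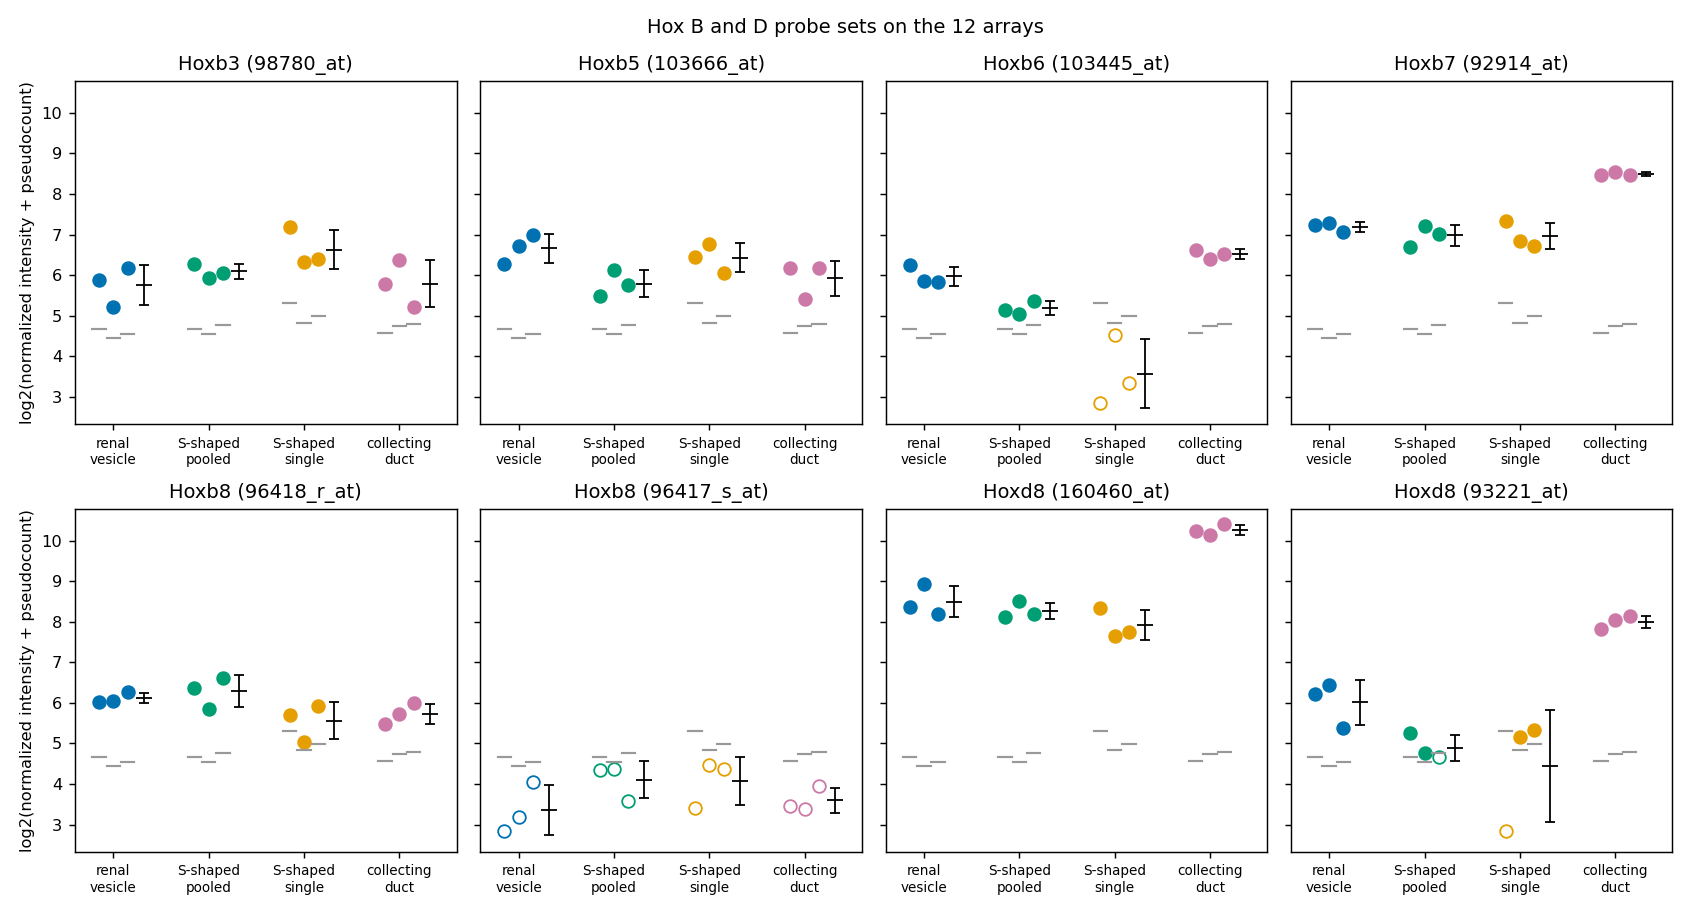
Log2 normalized intensity (vertical axis) of the 6 genes on each of the 12 arrays, by group; filled points are above background, open points are not, grey ticks mark each array's background level, and black bars give the mean and SD of 3 arrays. Hoxd8, Hoxb7 and Hoxb6 stand higher on the 3 collecting duct arrays than on all others, and Hoxb6 is open on all 3 single S-shaped body arrays.

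Hoxb6, a marker of lateral mesoderm in the early embryo, was lower in S-shaped bodies than in collecting duct. Its log2 level was 6.63, 6.39 and 6.52 in collecting duct, 6.24, 5.86 and 5.82 in renal vesicles, then 5.14, 5.05 and 5.37 in the pooled bodies. Single S-shaped bodies gave 2.85, 4.52 and 3.35, none of them above background. The first 3 groups did not overlap in that order, and all 3 duct arrays lay above all nephron arrays, as for Hoxd8 and Hoxb7. The single S-shaped body values, not being above background, have no exact place in the order. Pooled S-shaped bodies were below collecting duct by -1.33 (SE 0.22, limma adjusted p = 0.000664). Single ones were at least 2.77-fold lower than collecting duct (limma adjusted p = 0.00167), a bound that sets the mean of the brighter group against the higher of the dim array's own level and the lowest level above background. The renal vesicle difference from collecting duct, -0.54 (SE 0.22, 95% interval -1.02 to -0.06), did not pass the test after adjustment (limma adjusted p = 0.0962).

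Hoxb3, Hoxb5 and Hoxb8 showed no called difference from collecting duct. Hoxb5, known for its part in lung branching and in the neural crest of the gut, was 6.17, 5.41 and 6.17 in collecting duct and 6.28, 6.72 and 6.99 in renal vesicles. All 3 vesicle arrays were above all 3 duct arrays, with a log2 difference of 0.74 (SE 0.29, limma adjusted p = 0.0891) and a 95% interval of 0.10 to 1.38. It was 5.48, 6.13 and 5.76 in pooled and 6.46, 6.76 and 6.05 in single S-shaped bodies, both overlapping the duct arrays. Their differences from collecting duct were -0.13 (95% interval -0.77 to 0.51) and 0.51 (-0.26 to 1.27), with limma adjusted p = 0.762 and 0.281.

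Hoxb3, a gene of the hindbrain and pharyngeal arches, was 5.79, 6.37 and 5.21 in collecting duct, a spread as wide as that between groups. It was 5.89, 5.23 and 6.17 in renal vesicles, 6.28, 5.94 and 6.06 in the pooled bodies, then 7.19, 6.32 and 6.39 in single ones. The differences from collecting duct were -0.03 (95% interval -0.76 to 0.70), 0.30 (-0.43 to 1.03) and 0.84 (-0.04 to 1.73) for the 3 nephron groups in that order, with limma adjusted p = 0.966, 0.508 and 0.131. These intervals are wide enough to hold a change of more than 1.5-fold in each comparison.

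Hoxb8, used in the laboratory to hold myeloid progenitors in culture, had 5.49, 5.72 and 5.99 in collecting duct, 6.03, 6.06 and 6.27 in renal vesicles, then 6.38, 5.85 and 6.62 in the pooled bodies. Single ones gave 5.71, 5.04 and 5.93. Renal vesicles lay above collecting duct without overlap, by 0.39 (SE 0.25, limma adjusted p = 0.293), and pooled S-shaped bodies by 0.55 with overlap (SE 0.25, limma adjusted p = 0.105). Without pooled S-shaped body replicate 2, the lowest of its group, that difference was 0.77 and passed (limma adjusted p = 0.0391). Single S-shaped bodies differed from collecting duct by -0.17 (95% interval -0.96 to 0.62, limma adjusted p = 0.734). The second Hoxb8 probe set was above background on 0 of 12 arrays and did not follow the first (r = -0.12, rho -0.14), so the level of Hoxb8 rests on 1 probe set whose design rules were relaxed, as its suffix marks.

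Counted over the 6 genes, all of which passed the filter on low values, 2 were called lower and 0 higher in renal vesicles than in collecting duct, where 11.5% of the 9316 probe sets tested were called lower and 12.2% higher. The other 4 had no call, though 4 of the 6 genes had an unadjusted p under 0.05, against 36.5% of all probe sets. The groups did not overlap for 5 of 6 genes, against 39.5% of probe sets, and the differences of these 5 lay on both sides of 0. In pooled S-shaped bodies 3 of 6 were called lower than collecting duct and 0 higher, against backgrounds of 20.1% and 18.4%. In single ones 3 of 6 were called lower and 0 higher, against 17.7% and 15.9%. The median difference of the 6 genes was -0.28, -0.73 and -0.85 in those 3 comparisons, beside -0.02, -0.07 and -0.06 over all probe sets tested. These comparisons share the same 3 collecting duct arrays and are not independent of one another.

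**Figure D2:**
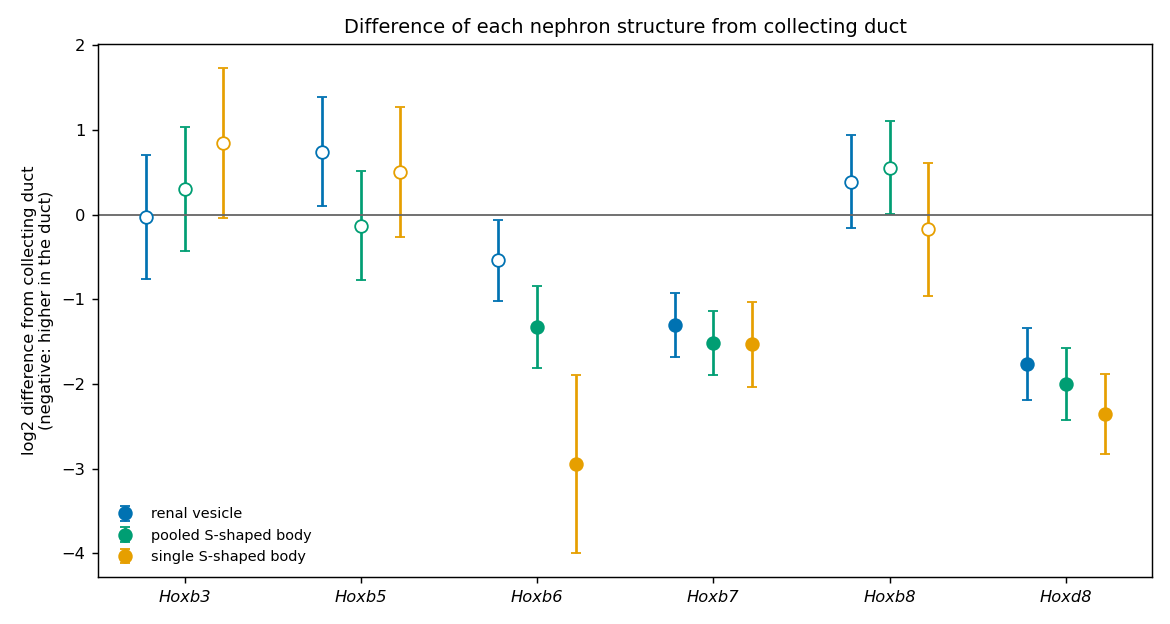
Log2 difference of renal vesicles, pooled and single S-shaped bodies from collecting duct (vertical axis) for each of the 6 genes; bars are 95% intervals of the limma fit, and filled points are called at an adjusted p under 0.05. Hoxb7 and Hoxd8 are filled and below 0 in all 3 comparisons, Hoxb6 in the S-shaped body comparisons, and Hoxb3, Hoxb5 and Hoxb8 in none.

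The arrays differed in overall brightness as deposited. On the deposited scale the median of all probe sets moved to -1.39 for renal vesicles against collecting duct and to -2.56 for single S-shaped bodies, and counts of calls follow that shift. Relative to it, the difference of renal vesicles from collecting duct was -1.49 for Hoxb7 and -1.83 for Hoxd8. Pooled S-shaped bodies, whose median moved to -0.47, differed by -1.50 and -1.96, and single ones by -1.92 and -2.83.

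Between the nephron stages, 2 of the 6 genes were called lower in pooled S-shaped bodies than in renal vesicles and 0 higher, where 19.2% of probe sets were called lower and 17.6% higher. The 2 genes were Hoxb5, by -0.87 (SE 0.29, limma adjusted p = 0.0365), and Hoxb6, by -0.79 (SE 0.22, limma adjusted p = 0.0154), and the groups did not overlap for these 2 of the 6 genes, beside 47.4% of probe sets. Both calls depended on single arrays. The Hoxb5 call was lost without renal vesicle replicate 3 or 4 (limma adjusted p = 0.0775 and 0.122) and without pooled S-shaped body replicate 1 or 3 (0.126 and 0.0857). The Hoxb6 call was lost without pooled S-shaped body replicate 2 (-0.72, limma adjusted p = 0.0511). With all 12 arrays in one fit neither passed (limma adjusted p = 0.0507 and 0.137), and on the deposited scale, where the median moved to 0.95, the signs turned to 0.22 and 0.27.

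For Hoxb7 and Hoxd8, no stage difference was called by the main probe sets. Hoxb7 differed between pooled S-shaped bodies and renal vesicles by -0.22 (95% interval -0.60 to 0.16, limma adjusted p = 0.357), and Hoxd8 by -0.23 (-0.66 to 0.20, limma adjusted p = 0.386). The second Hoxd8 probe set differed by -1.12 and passed (limma adjusted p = 0.0108), so the 2 probe sets of this gene part here; its pooled S-shaped body values lay near background. Averaged over both probe sets, Hoxd8 was called lower in pooled S-shaped bodies than in renal vesicles, by -0.67 (limma adjusted p = 0.0325). Hoxb3 differed by 0.33 and Hoxb8 by 0.17, with 95% intervals of -0.40 to 1.06 and -0.38 to 0.72 (limma adjusted p = 0.473 and 0.644). The median difference of the 6 genes was -0.22, beside -0.03 over all probe sets.

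Renal vesicle replicate 3 had the highest Hoxd8 (8.93) and Hoxb7 (7.29) of its group. It also had the highest sum of collecting duct markers, 647 against 219 and 333, with 7 of the 10 above background against 5 and 5. Its stroma sum of 2008 and endothelial sum of 3079 were the highest of its group too. Without that array the differences from collecting duct were -1.35 for Hoxb7 and -1.98 for Hoxd8, both still called (limma adjusted p = 0.000788 and 1.75e-05). In pooled S-shaped bodies the duct markers were mixed: Krt7, Cdh1 and Gata3 were above background on all 3 arrays, Krt8 on 2 and Epcam on 1, and Krt18, Krt19, Cldn4, Tfap2b and Aqp2 on 0. Krt7 and Gata3 differed from collecting duct by -2.01 and -0.77 without a call (limma adjusted p = 0.0889 and 0.104), while 6 of the 9 markers tested were called lower. Against renal vesicles these 2 were called higher in pooled bodies, by 4.24 and 2.51 (limma adjusted p = 0.00288 and 0.000280), and 4 markers were called lower. Hoxb7 was above background on each pooled S-shaped body array, and the part of duct material in its level there was not tested.

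Single and pooled S-shaped bodies were compared to see what pooling changed, and 0 of the 6 genes were called by limma, beside 0.397% of all probe sets called in either direction. At an unadjusted p under 0.05 it was 1 gene, Hoxb6, beside 17.5% of probe sets, and with all 12 arrays in one fit Hoxb6 was called. By its means Hoxb6 was at least 1.11-fold lower in single bodies, where 0 of 3 arrays were above background (limma adjusted p = 0.160). This bound carries no sampling error. The pooled mean of 5.19 lay between the single arrays' lowest and highest background levels, 4.83 and 5.30, so a like level could go uncounted there. Hoxb7 differed by -0.01, with a 95% interval of -0.62 to 0.59. The intervals of the others were -0.18 to 1.26 for Hoxb3, -0.09 to 1.36 for Hoxb5, -1.54 to 0.09 for Hoxb8 and -0.89 to 0.18 for Hoxd8, so a change of about 1.5-fold is inside each. Against renal vesicles, 1 of the 6 genes was called in either direction in single S-shaped bodies, beside 27.0% of probe sets: Hoxb6 was at least 1.91-fold lower (limma adjusted p = 0.00787). In that comparison stage and pooling cannot be told apart.

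Ordered by level of the main probe sets, Hoxd8 and Hoxb7 ran collecting duct first, then renal vesicles, pooled and single S-shaped bodies. Of these steps only the one below collecting duct passed the test. For Hoxd8 the step from renal vesicle to pooled body did pass with the second probe set and with both averaged. For Hoxb7 pooled and single bodies differed by -0.01, so their order is not settled. Hoxb6 had the same order down to pooled bodies, with single bodies under background, and its steps from collecting duct to renal vesicle and from pooled to single bodies did not pass the test. For Hoxb5 the order was renal vesicle, single body, collecting duct and pooled body, with no called step between neighbours. Hoxb3 was highest in single bodies and lowest in renal vesicles, and Hoxb8 highest in pooled and lowest in single bodies; no pair of groups was called for either.

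The 6 genes fell into those with a duct pattern and the rest. Over the 12 arrays, which share groups and processing, Hoxb7 and Hoxd8 correlated at r = 0.97 (rho 0.90), though they lie on chromosomes 11 and 2. Hoxb6 correlated with Hoxd8 at 0.68 and with its neighbour Hoxb7 at 0.61, and with Hoxb3 at -0.73. Its values on the single S-shaped body arrays, which enter these r, were under background. Hoxb5, next to Hoxb6, correlated with it at -0.13, and Hoxb8 correlated with its neighbour Hoxb7 at -0.27. No p is given, since the values within a group are not independent of the group.

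Among 8256 other probe sets with 1 symbol, those most like Hoxb7 over the 12 arrays were Dsc2, a desmosomal cadherin, at r = 0.99, and the epithelial keratins Krt19 and Krt18 at 0.97 each. Krt18 and Krt19 are also in the collecting duct marker list, and the Krt19 probe set found here is its second. By their suffix, this probe set and that of Dsc2 are of the kind marked as matching a family of similar sequences. Those most like Hoxd8 were Mal, a protein of apical membrane transport, at 0.98, and Crybg1 and Esrp1, a splicing factor of epithelia, at 0.97 each. The likeness is in which arrays are high and not in the size of the step: Krt19 by its brightest probe set was at least 109-fold higher in collecting duct than in renal vesicles (limma adjusted p = 4.50e-08), while Hoxb7 changed 2.46-fold.

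**Figure D3:**
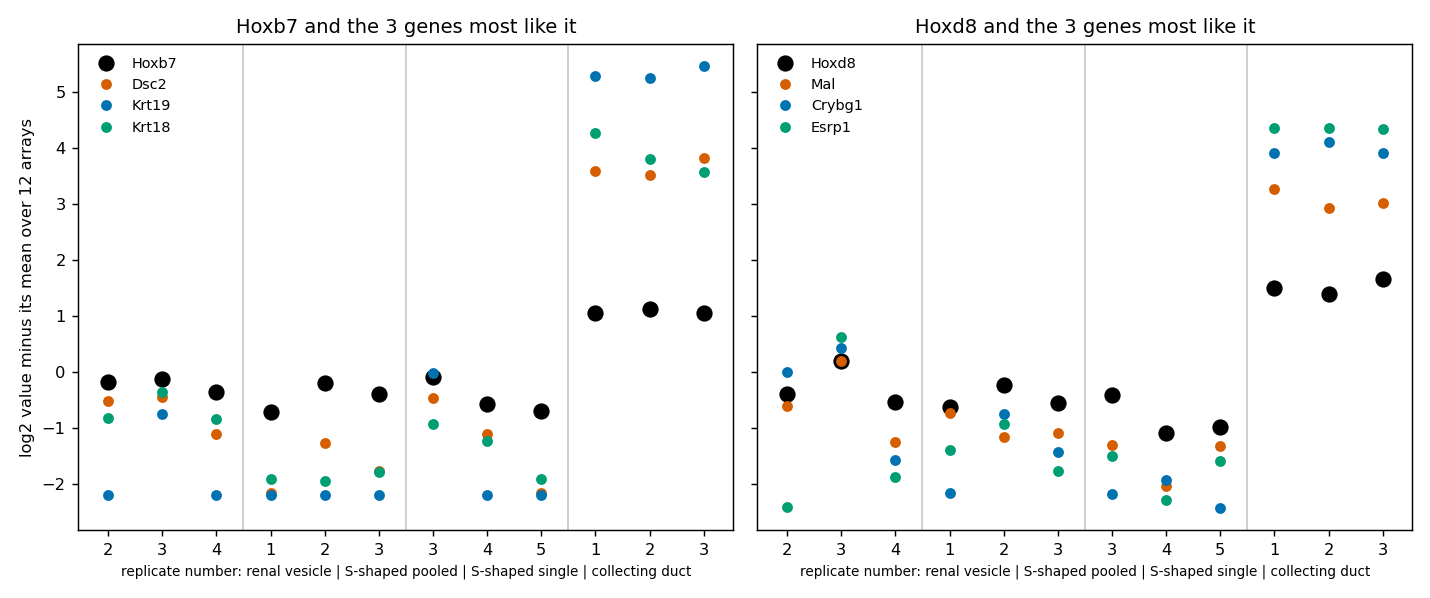
Log2 level of Hoxb7 (left) and Hoxd8 (right), in black, and of the 3 genes most like each in colour, minus each gene's mean over the 12 arrays (vertical axis); replicate numbers by group are on the horizontal axis. All genes are highest on the 3 collecting duct arrays, the keratins and the others by more than the Hox genes.

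Hoxb6 was most like Ube2r2, a ubiquitin-conjugating enzyme, Pml, the nuclear body protein, and Eif3l, a translation factor, at r = 0.97 each. These r include the single S-shaped body arrays, its lowest values, where Hoxb6 was under background and not measured. Hoxb3 was most like Plcg1, a phospholipase of receptor signalling, at 0.92, Crhr2 at 0.91 and Timm13 at 0.90. Crhr2 was above background just on collecting duct replicate 2 and single S-shaped body replicate 3. For Hoxb5 the genes most like it were Ngef at 0.86, Larp7 at 0.82 and Zfp503 at 0.81. For Hoxb8 they were Clgn at 0.88 (rho 0.62), Dna2 at 0.87 and Snrpc at 0.85. The probe sets of Zfp503 and Clgn had relaxed design rules by their suffix, as that of Hoxb8 did. These are the highest of 8256 values each and carry no test.

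Among the other genes of the Hox clusters, more were called higher than lower in nephron structures. Of 25 further Hox genes with a probe set of 1 symbol, 17 passed the filter; 9 were called higher and 1 lower in renal vesicles than in collecting duct, and 7 were not called. In pooled S-shaped bodies 8 were higher, 1 lower and 8 not called, and in single ones 7 higher, 1 lower and 8 not called of 16. Of all probe sets tested, 12.2% were higher and 11.5% lower in renal vesicles. The shares were 18.4% and 20.1% in pooled and 15.9% and 17.7% in single S-shaped bodies. The median differences of these other Hox genes were 1.40, 0.74 and 1.05, beside the -0.28, -0.73 and -0.85 of the 6 genes. The filter used mean signal, so a gene under background in collecting duct could pass through its nephron arrays alone. Such a gene could hardly come out lower: Hoxa7 and Hoxa10 were at 0 on all 3 duct arrays. Conversely, Hoxd1 was above background on the 3 duct arrays and on no other. The 6 genes were all above background in the duct, so the medians are not from like sets. On the deposited scale the counts in renal vesicles were 7 higher and 5 lower, and in single S-shaped bodies 5 higher and 9 lower. Without single S-shaped body replicate 3 or 4, 2 were lower in single bodies.

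Hoxc9, at background in collecting duct, was higher by at least 18.9-fold in renal vesicles and by at least 10.1-fold in pooled S-shaped bodies (limma adjusted p = 2.81e-07 and 5.92e-07); its probe set is of the kind marked as matching a family of similar sequences. Hoxa11, of the group needed for kidney induction, was at least 10.3-fold higher in renal vesicles (limma adjusted p = 3.21e-07). Hoxc6 was at least 15.6-fold higher in pooled and at least 15.3-fold higher in single S-shaped bodies (limma adjusted p = 2.84e-07 and 2.81e-05), and Hoxa7 at least 7.20-fold higher in single ones (limma adjusted p = 2.08e-05). Hoxd1 was the 1 gene of this list called lower in each of the 3 comparisons, by at least 2.30-, 2.12- and 1.63-fold in the same order (limma adjusted p = 0.000452, 0.000121 and 0.00109). With a filter at the 50th percentile Hoxd1 was not tested.

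In the HoxD cluster, Hoxd10, toward the rear end, was under background on the 3 collecting duct arrays and higher in renal vesicles and pooled S-shaped bodies, by at least 1.91- and 1.203-fold (limma adjusted p = 0.000215 and 0.000920). Hoxd9, next to Hoxd8 in the RefSeq gene order, was above background on 0 of 12 arrays, and so were Hoxd12 and Hoxd13. In the HoxB cluster, Hoxb4 was above background on 0 arrays and Hoxb9, next to Hoxb8, on 1 of 12. Hoxb1 and Hoxb13, at the ends of the cluster, were not called (limma adjusted p = 0.289 and 0.544 in renal vesicles). The 5 HoxB genes described here were above background on 9 to 12 arrays; of these, Hoxb7 was called in renal vesicles and Hoxb7 and Hoxb6 in pooled S-shaped bodies.

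**Figure D4:**
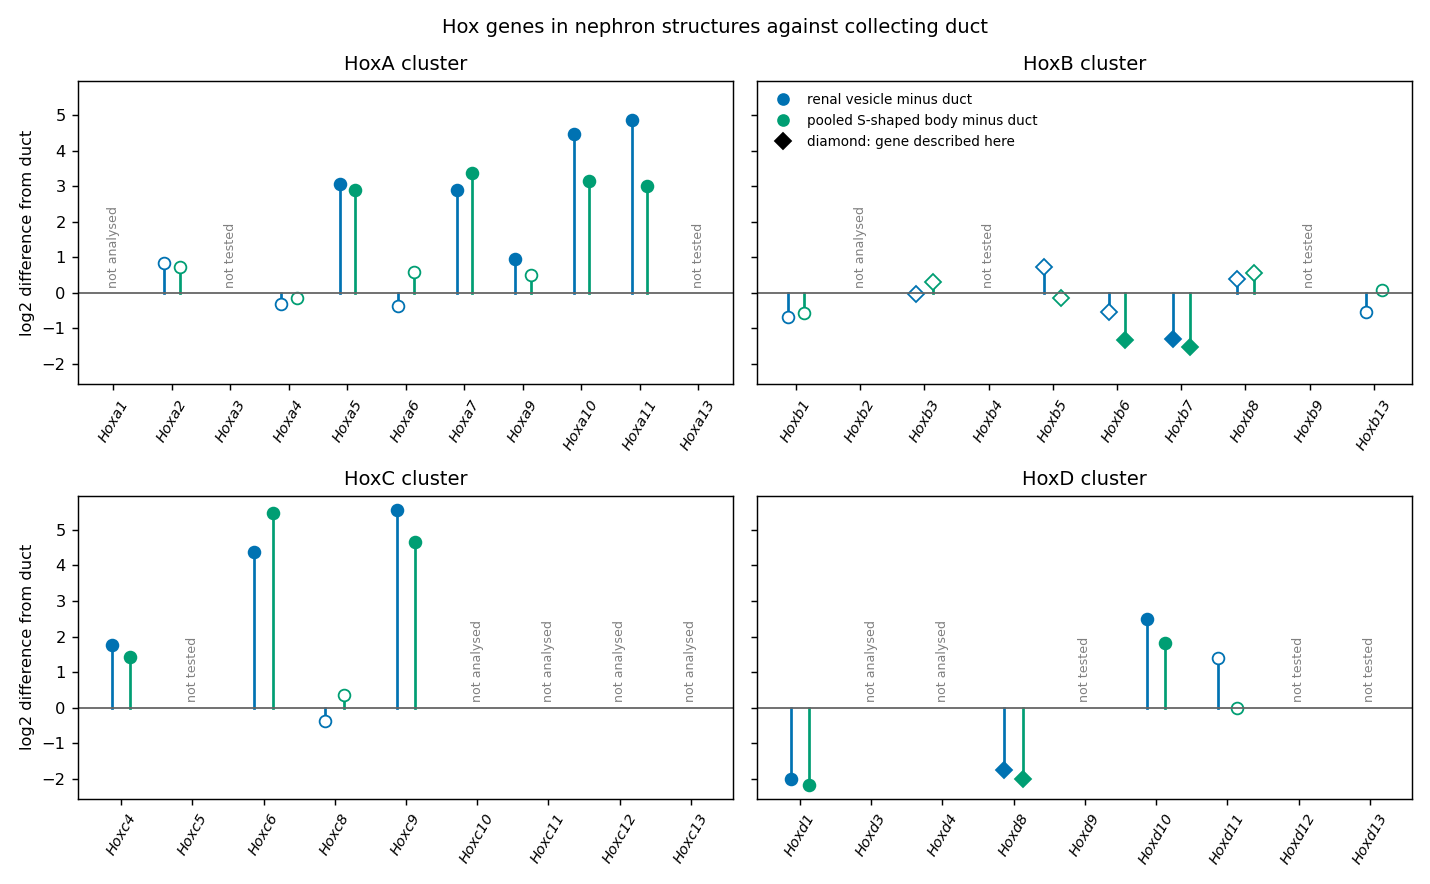
Log2 difference from collecting duct (vertical axis) of renal vesicles and pooled S-shaped bodies for the Hox genes of the 4 clusters, ordered by gene number; diamonds are the 6 genes described, filled symbols are called at an adjusted p under 0.05, "not tested" marks genes under the filter and "not analysed" genes without a probe set of 1 symbol. All filled symbols of the HoxA and HoxC clusters and those of Hoxd10 are above 0, while Hoxb6, Hoxb7, Hoxd8 and Hoxd1 have filled symbols below it.

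Hox cofactors of the Pbx and Meis class were also called higher and not lower. Of 6 on the array, 4 were higher in renal vesicles than in collecting duct. The same was true of 3 in pooled bodies and 3 of 5 tested in single ones, with 0 lower. The shares of all probe sets called higher were 12.2%, 18.4% and 15.9% in that order, and those called lower 11.5%, 20.1% and 17.7%. On each collecting duct array 2 of the 6 cofactors were above background. A cofactor under background there could hardly come out lower, so the counts of lower are not comparable with these shares. On the deposited scale the cofactor counts were 4 higher and 2 lower in renal vesicles, and 1 higher and 2 lower in single S-shaped bodies. Meis1 was at least 2.88- and 2.63-fold higher in renal vesicles and pooled S-shaped bodies (limma adjusted p = 5.10e-06 and 4.53e-06). It was also called higher in single S-shaped bodies (limma adjusted p = 0.00500), with 2 of 3 arrays above background, so no fold is given there. Meis2 was at least 2.02- and 2.52-fold higher in the first pair (limma adjusted p = 2.54e-05 and 6.68e-06). Pbx3 stood at a log2 level of 9.78 in single S-shaped bodies and 6.78 in collecting duct (limma adjusted p = 5.05e-05). On the deposited scale this difference came to 0.00184, where the median of all probe sets was -2.56. Relative to that median Pbx3 was higher by 2.56. Both Meis genes were under background in collecting duct, where Hoxb7 and Hoxd8 were highest.

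Of the chromatin regulators of Hox clusters, the Polycomb and Trithorax proteins and Ctcf, 13 were tested with the pooled groups. Their counts stand beside 12.2% of all probe sets called higher and 11.5% lower in renal vesicles. For pooled S-shaped bodies these shares were 18.4% and 20.1%, and for single ones 15.9% and 17.7%. In renal vesicles 2 regulators were higher and 0 lower: Bmi1 by 1.03 and Ezh2 by 0.68 (limma adjusted p = 0.000260 and 0.00373). Their signs turned to -0.35 and -0.72 on the deposited scale, where 0 regulators were higher and 11 lower. The median of all probe sets there was -1.39, and relative to it Bmi1 was higher by 1.05 and Ezh2 by 0.68. Without renal vesicle replicate 3, 1 regulator was lower. In pooled S-shaped bodies 6 were lower and 0 higher, among them Cbx2 and Ctcf (limma adjusted p = 0.00135 and 6.70e-05). Cbx2 was above background on 1 of 3 pooled arrays against 3 of 3 duct arrays, so the size of its difference is not measured, and Ctcf differed by -1.40. The count fell to 3 with all 12 arrays in one fit, where Ctcf was not called (limma adjusted p = 0.0510), and to 3 with averaged probe sets. In single ones 1 was higher and 5 lower of 14: Pcgf2 by 1.69 (-1.16 on the deposited scale, or 1.40 relative to the median there), Ctcf by -2.67 with 2 of 3 single arrays above background, and Wdr5 at least 1.94-fold lower (limma adjusted p = 0.00864, 0.0119 and 0.0129). The 5 lower became 3 without any 1 of the 3 collecting duct arrays, 2 with no filter, 2 with averaged probe sets and 13 on the deposited scale. The Ctcf call in single bodies was lost without collecting duct replicate 3 (limma adjusted p = 0.0548) and with no filter (0.0758), and that of Wdr5 without collecting duct replicate 1 or 2 (0.0590 and 0.0518) and with no filter (0.0643).

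Partners and targets of Hox proteins in the mesenchyme had 5 genes tested. All probe sets had 12.2% called higher and 11.5% lower in renal vesicles. They had 18.4% and 20.1% in pooled and 15.9% and 17.7% in single S-shaped bodies. Counts this small were not tested against these shares. Gdnf, the signal that draws out the ureteric bud, and Six2, the factor of nephron progenitors, were the 2 called higher in renal vesicles, by 3.03 and 2.05 (limma adjusted p = 1.17e-05 and 3.57e-05), and again in pooled S-shaped bodies, by 1.15 and 1.05 (0.00472 and 0.00194). With its probe sets averaged, Gdnf was not called in pooled bodies (0.86, limma adjusted p = 0.155), and on the deposited scale Six2 was called in neither comparison (limma adjusted p = 0.0854 and 0.0865). Relative to the median of all probe sets on that scale, Six2 was higher by 1.97 and 1.12. In single ones 0 were higher and 1 lower: Gdnf was at least 1.16-fold lower (limma adjusted p = 0.0195), a call lost without any 1 of the 3 collecting duct replicates (0.0668, 0.0914 and 0.0605). With its probe sets averaged the difference was -0.053 (limma adjusted p = 0.914).

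Of 5 ureteric genes tested of the Ret and Wnt11 branch, 2 were higher and 1 lower in renal vesicles, beside 12.2% and 11.5% of all probe sets. Lhx1, needed for both ureteric bud and nephron, was at least 5.59-fold higher and Wnt11, a ureteric tip signal, was also called higher (limma adjusted p = 1.86e-06 and 0.0170). Gata3, a factor of the duct lineage, fell by 3.29 (limma adjusted p = 5.86e-05). Wnt11 was above background on 2 of 3 vesicle arrays, so no fold is given. The Wnt11 call was lost without collecting duct replicate 1 (0.0505), with a pseudocount of 50 (0.0557) and with no filter (0.0747). Pooled S-shaped bodies had 1 higher and 1 lower, beside 18.4% and 20.1% of all probe sets. These were Lhx1 by at least 1.77-fold and Etv4 by -0.87 (limma adjusted p = 3.20e-05 and 0.0238). The Etv4 call was lost without pooled S-shaped body replicate 1 or 3 (0.0919 and 0.0589) or collecting duct replicate 1, 2 or 3 (0.0569, 0.0746 and 0.0525). In single ones 1 of 4 was higher and 0 lower, beside 15.9% and 17.7% of all probe sets. The gene was Lhx1 (limma adjusted p = 0.00177). It was above background on 1 of 3 single and 0 of 3 duct arrays, so no fold is given. Counts this small were not tested against these shares. Ret, the Gdnf receptor of the bud tip, was at 0 on all 12 arrays, collecting duct included, and Wnt11 was at 0 on the 3 collecting duct arrays. Of the 6 genes of this list on the array, 2 were above background on each duct array, and the others could hardly come out lower.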

How the data were processed

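Intensity values of 12 arrays were taken from the authors' deposited table; they are linear and partly negative. It has 12422 probe sets and 66 control probe sets. The submitters' processing notes name GCOS, without a version, and how signals were summarised or scaled is not stated in the labels or headers. Array medians differed by up to 17.8-fold and 19.5% to 25.0% of values were at or below 0. No 2 arrays were identical (0 pairs), and none was left out.

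The arrays were quantile normalized without controls, values under 0 were set to 0, and log2 of the value plus 7.22 (25% of the median) was used. Probe sets under the 25th percentile of mean signal were left out. The annotation supplied for the array gave 1 symbol to 10833 probe sets, several to 396 and none to 1193. Differences were tested two-sided with limma 3.58.1 (R 4.3.3; empirical Bayes with trend), with Benjamini-Hochberg adjustment over 9316 probe sets and calls at 0.05. Renal vesicle, pooled S-shaped body and collecting duct arrays shared 1 fit of 9 arrays; each comparison with single S-shaped bodies used its own 6. The fit was tested on simulated data. The genes, lists and naming rule were chosen with earlier results of these data known. Named are the 6 genes, the 3 genes outside the Hox clusters most like each by Pearson r, and from each list up to 2 called genes per direction whose groups do not overlap, in comparisons with collecting duct; markers and Hox neighbours beside these were named after their values were seen.

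Same-numbered samples did not deviate together (r from -0.08 to 0.04), so numbers were not used as pairs. Alternatives were other pseudocounts, scales, filters and arrays in the fit, no trend, array weights, averaged probe sets per gene, a replicate block, and leaving out each array.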

Additional observations from a re-analysis of the deposited data

How the results depend on the processing

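Hoxb7 and Hoxd8 were called lower than collecting duct in renal vesicles, pooled and single S-shaped bodies under every alternative run, with adjusted p at most 0.00936 for Hoxb7 and 0.00287 for Hoxd8, and Hoxb6 in both S-shaped body comparisons (at most 0.0160). On the deposited scale, which leaves the arrays' brightness in, 5 genes were called for renal vesicle against collecting duct, 4 for pooled S-shaped body against renal vesicle, 6 for single against pooled, 6 for single against collecting duct and 5 for single against renal vesicle; there the median of all probe sets moved to -1.39, 0.95, -2.20, -2.56 and -1.06. Signs turned on that scale for Hoxb5 (-0.78) and Hoxb8 (-1.10) in renal vesicles and Hoxb3 (-0.10) in pooled S-shaped bodies against collecting duct; for Hoxb5 (0.22), Hoxb6 (0.27), Hoxb7 (0.92) and Hoxd8 (0.80) between the stages; for Hoxb3 (-1.85) and Hoxb5 (-1.71) in single against pooled; for Hoxb3 (-1.96) and Hoxb5 (-2.26) in single against collecting duct and Hoxb3 (-0.42) in single against renal vesicle; and for Bmi1 (-0.35), Ezh2 (-0.72) and Pcgf2 (-1.16). Array weights gave 0.022 for Hoxb3 in renal vesicles against collecting duct, and the mean of both probe sets gave 0.15 and 0.082 for Hoxb8 when single S-shaped bodies were set against collecting duct or renal vesicle.

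Between pooled S-shaped bodies and renal vesicles 1 gene was called with no filter, 0 with all 12 arrays in a fit and 0 with a replicate block; leaving out each array gave 1 to 2. In single against pooled 1 was called with all 12 arrays. In single S-shaped bodies against renal vesicles 0 were called with a filter at the 50th percentile, which Hoxb6 does not pass, and 0 with a replicate block (Hoxb6 adjusted p = 0.0950). The replicate numbers did not pair the samples, and the block left 2 and 3 genes called for the pooled groups against the duct. Leaving out each array gave 3 to 4 called genes for pooled S-shaped bodies against collecting duct. It turned signs for Hoxb3 in renal vesicles (-0.32 to 0.26) and Hoxb5 in pooled S-shaped bodies (-0.38 to 0.025) against collecting duct, Hoxb8 between the stages (-0.00317 to 0.38), Hoxb7 in single against pooled (-0.20 to 0.11) and Hoxb8 in single against collecting duct (-0.35 to 0.089), none of which was called. The cause of these shifts was not tested beyond the change of scale. With 3 arrays a group, and single S-shaped body arrays dim, low genes such as Hoxb6 are bounded there and not measured.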
